A study of Mus musculus with 10 samples.

Results

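The transcripts described here are *Fsd1l*, *Dnah7a*, *Gm37881*, *Zc3h12c*, *Swap70*, *Sdc4*, *Coro2a* and *Hmbox1*, 8 of the 48321 gene symbols in the counts. They were picked because their levels part FoxP3+ from FoxP3− populations in these same counts although they are seldom used as markers of regulatory T cells (Tregs). All 8 were among the 13796 genes that passed the filter on low counts, most of them through the FoxP3+CD25+ libraries alone. The levels that chose them are therefore given as a description, without a test. *Hmbox1* goes against the name Treg-selective, since it was lower in FoxP3+CD25+ cells than in FoxP3−CD25− cells.

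RNA-seq had been done on spleen CD4+ T cells of C57BL/6 mice that carried a GFP reporter of *Foxp3*, sorted by GFP and by CD25, and GFP is read here as FoxP3. There were 5 groups of 2 libraries, with FoxP3+CD25+ and FoxP3−CD25− cells from either genotype and a further KO population that was FoxP3+CD25−. KO mice were *Satb1* F/F with *Thpok-cre*, which deletes once cells have entered the CD4+ lineage, so that the KO label applies to all CD4+ T cells and not to Tregs alone. The WT label names no alleles. Ages and sexes are given only for the study as a whole, as young adults of mixed sex, and a shared number within a genotype is taken to mean 1 mouse, as the labels leave it to be understood.

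Tregs are CD4+ T cells that restrain immune responses. They are defined by the transcription factor FoxP3 and by high surface CD25, the α chain of the interleukin-2 receptor encoded by *Il2ra*. SATB1 is a nuclear protein that organizes chromatin in T cells and takes part in setting up the Treg programme in the thymus. The 8 transcripts come from unrelated families. Syndecan-4 (*Sdc4*) is a heparan sulphate proteoglycan of the cell surface, SWAP-70 and the coronin encoded by *Coro2a* act on actin, *Zc3h12c* encodes a regnase that cleaves mRNA, *Dnah7a* a motor subunit of cilia, *Fsd1l* a protein with fibronectin type III and SPRY domains, and *Hmbox1* a homeobox protein that binds telomeres.

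Reads counted on genes ranged from 6094952 to 12410064 per library, so that 3 counts, taken as the floor, were 0.242 to 0.492 CPM (counts scaled to library size) before TMM scaling, which covers counting error only. The summed level of 5 CD4 T-cell markers was 2901 to 4002 CPM in all libraries. That of 5 B-cell markers was 16.4 to 20.5 CPM in the FoxP3+CD25+ libraries and 2.37 to 8.27 CPM in the other 6. *Satb1* itself was at 379 and 478 CPM in WT and 598 and 534 CPM in KO FoxP3+CD25+ cells, at 818 and 881 CPM in WT and 841 and 682 CPM in KO FoxP3−CD25− cells, and at 1186 and 993 CPM in the KO FoxP3+CD25− population. Counts over the whole gene do not resolve the floxed part, so these levels do not check the KO labels. *Xist* held 14487 to 16362 counts in the libraries of WT replicate 1 and 0 to 4 in the other 8. The Y-linked genes *Ddx3y*, *Eif2s3y*, *Kdm5d* and *Uty* had 0 counts in WT replicate 1 and 208 to 2103 in the other 8. By these genes WT replicate 1 was female and the other mice male, so sex and genotype are partly confounded in comparisons of KO with WT. For some transcripts and some counts of genes called, these comparisons are also given without WT replicate 1.

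*Gm37881* comes first because of where it lies. GENCODE M21 lists it as a transcript to be experimentally tested, with 1 exon of 421 bases at chr2:11683126-11683546 on the plus strand of mm10. This lies inside *Il2ra* on the same strand, in intron 7 counted from the 5′ end over its 9 merged exons. The model starts at the base directly after an *Il2ra* exon and ends 830 bases before the next one. Its first 300 bases, read from the GENCODE transcript, are shown so that this start can be seen, with the first bases of the *Il2ra* intron in capitals (chr2:11683126-11683425, plus strand).

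Gm37881: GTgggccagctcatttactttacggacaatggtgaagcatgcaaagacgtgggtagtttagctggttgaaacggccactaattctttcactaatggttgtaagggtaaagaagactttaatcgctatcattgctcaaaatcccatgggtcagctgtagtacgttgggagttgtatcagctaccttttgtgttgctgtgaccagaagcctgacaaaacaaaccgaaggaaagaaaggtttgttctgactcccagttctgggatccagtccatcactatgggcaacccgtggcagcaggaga

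*Gm37881* had 62 and 89 counts in WT and 65 and 63 in KO FoxP3+CD25+ libraries. It had 0 and 1 in KO FoxP3+CD25−, 1 and 0 in WT FoxP3−CD25− and 0 in both KO FoxP3−CD25− libraries. The 4 CD25+ libraries thus stood apart from the other 6 without overlap. *Gm37881* was picked for a pattern of this kind, and the share of all genes with this order was not counted. The scaled ratio between WT FoxP3+CD25+ and FoxP3−CD25− cells was 202 (95% counting interval 35.7 to 8025), and in KO mice the level was at least 41.0-fold higher, taken against a floor of 3 counts over the group. *Il2ra* had 5141 and 6436 counts in WT and 4110 and 5181 in KO FoxP3+CD25+ libraries, against 15 to 153 in the other 6. Of each 1000 counts on both genes, *Gm37881* took 11.9 and 13.6 in the WT and 15.6 and 12.01 in the KO FoxP3+CD25+ libraries. The 95% counting intervals of these shares overlapped. Pooled over these 4 libraries the share was 13.2 per 1000 (exact binomial 95% interval 11.7 to 14.8), and over the other 6 libraries, with 2 *Gm37881* counts, 4.68 (0.568 to 16.8). A separate transcript and *Il2ra* RNA that still holds its intron cannot be told apart in these counts, and CD25 was itself used in the sort.

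**Figure D1:**
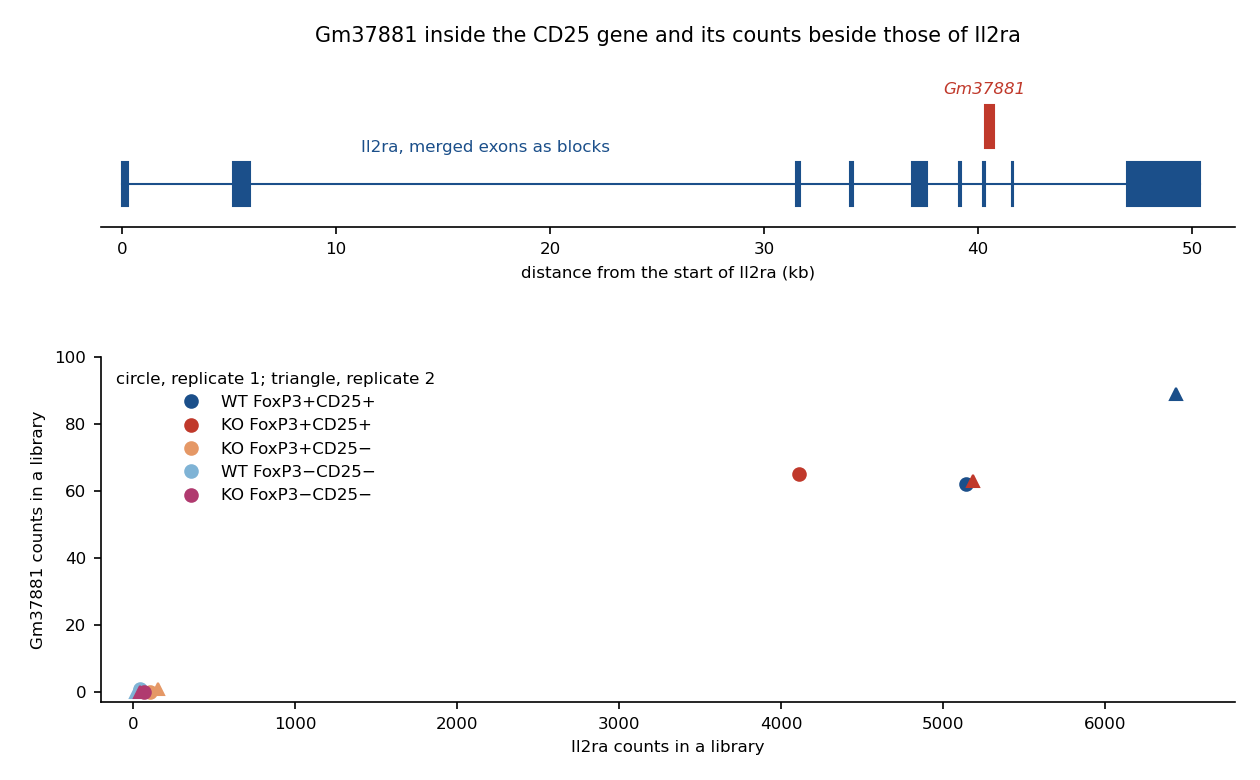
Top, the merged exons of *Il2ra* (blue blocks) and *Gm37881* (red) by distance from the start of *Il2ra* in kb. Bottom, *Gm37881* counts against *Il2ra* counts, 1 point per library with circles for replicate 1 and triangles for replicate 2; the 4 FoxP3+CD25+ libraries lie at 62 to 89 *Gm37881* counts and the other 6 at 0 or 1.

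In all, 7 of the 8 transcripts had all 4 FoxP3+CD25+ libraries above all 4 FoxP3−CD25− libraries, an order that 9.99% of all tested genes showed, and *Hmbox1* had them all below, as did 9.05%. These orders are what the choice of the transcripts used, and nothing is read from the counts. In bulk samples like these, fewer cells of a type and less RNA per cell cannot be told apart.

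*Sdc4* (ENSMUSG00000017009.3, chr2:164424247-164443887, minus strand) reached 33.7 and 24.5 CPM in WT and 21.2 and 27.5 CPM in KO FoxP3+CD25+ cells. It was at 1.45 and 0.766 CPM in KO FoxP3+CD25− cells, at 0.745 and 0.103 CPM in WT FoxP3−CD25− cells and at 1.16 and 0.395 CPM in KO FoxP3−CD25− cells. Outside the CD25+ gate this surface proteoglycan was thus at 1 to 9 counts per library, close to the floor. The ratio of summed counts between WT FoxP3+CD25+ and FoxP3−CD25− cells, scaled to library size, was 62.8, with a 95% counting interval of 33.9 to 132. In KO mice it was 33.5 (18.02 to 70.6).

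*Swap70* (ENSMUSG00000031015.8, chr7:110221711-110283506, plus strand) encodes a protein that binds membrane phosphoinositides and actin and was first known from B cells. It was at 68.8 and 81.5 CPM in WT and at 73.4 and 74.2 CPM in KO FoxP3+CD25+ cells. The KO FoxP3+CD25− population was at 14.2 and 11.8 CPM, and FoxP3−CD25− cells were at 10.4 and 6.32 CPM in KO and at 4.39 and 5.06 CPM in WT mice. The populations outside the CD25+ gate formed 3 steps, with every KO FoxP3+CD25− library above every FoxP3−CD25− library. The log2 difference between FoxP3+CD25+ and FoxP3−CD25− cells was 3.995 (SE 0.21) in WT and 3.16 (SE 0.21) in KO mice. The annotation places 395 exon bases of *Swap70* opposite the antisense gene *Gm45515*, which was not analysed here. The B-cell marker sum was higher in the CD25+ gate too, with *Cd79b* holding nearly all of it and *Ms4a1* at or near 0, and the part of B cells in the level of *Swap70* was not tested.

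*Coro2a* (ENSMUSG00000028337.14, chr4:46536937-46602202, minus strand) encodes a WD-repeat coronin that is also found with the NCoR corepressor complex. It was at 332 and 362 CPM in WT and at 399 and 405 CPM in KO FoxP3+CD25+ cells. The KO FoxP3+CD25− population held it at 294 and 293 CPM. WT FoxP3−CD25− cells were at 114 and 77.5 CPM and KO FoxP3−CD25− cells at 90.8 and 81.3 CPM. All 6 FoxP3+ libraries were therefore well above the 4 FoxP3−CD25− libraries, whatever their CD25. The log2 difference between FoxP3+CD25+ and FoxP3−CD25− cells was 1.86 (SE 0.16) in WT and 2.22 (SE 0.16) in KO mice. *Swap70* and *Coro2a* were the 2 of 8 transcripts with this order, which 1.95% of tested genes showed, and it too follows the way they were picked.

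*Zc3h12c* (ENSMUSG00000035164.8, chr9:52111344-52168572, minus strand) was at 27.0 and 12.2 CPM in WT and at 11.3 and 14.5 CPM in KO FoxP3+CD25+ cells. In the other 6 libraries it was at 0.103 to 0.970 CPM, 1 to 7 counts each. The 2 WT FoxP3+CD25+ libraries differed more from each other than the 2 KO libraries did, and WT replicate 1 alone held the high value. The scaled ratio of summed counts between the WT gates was 52.5 (95% counting interval 26.3 to 123), and between the KO gates 22.2 (11.05 to 52.3). The miRNA gene *Mir6244* shares 117 exon bases on the other strand and had 0 to 4 counts.

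*Dnah7a* (ENSMUSG00000096141.2, chr1:53397006-53706784, minus strand) encodes an axonemal dynein heavy chain, a motor of cilia, which lymphocytes do not carry. It was at 19.8 and 14.5 CPM in WT and at 6.87 and 14.2 CPM in KO FoxP3+CD25+ cells, and at 0 to 0.647 CPM in the other 6 libraries. The WT gates differed by a scaled ratio of 372 (95% counting interval 66.2 to 14731), which rests on 1 count in the FoxP3−CD25− libraries, and the KO gates by 36.8 (14.1 to 137). Its near-identical paralogs *Dnah7b* and *Dnah7c* had 0 to 3 counts in every library, and how reads that fit several copies equally were counted is not given in the sources used here.

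*Fsd1l* (ENSMUSG00000054752.16, chr4:53631471-53707009, plus strand) was at 17.3 and 18.7 CPM in WT and at 8.54 and 9.83 CPM in KO FoxP3+CD25+ cells, so the genotypes did not overlap. It had 0 to 3 counts, at most 0.485 CPM, in the other 6 libraries. The scaled ratio between the WT gates was 131 (95% counting interval 44.2 to 637), and between the KO gates, with 1 count in FoxP3−CD25− cells, 126 (22.2 to 5011).

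*Hmbox1* (ENSMUSG00000021972.14, chr14:64811600-64949871, minus strand) took the reverse order. It was lowest in FoxP3+CD25+ cells, at 76.8 and 67.0 CPM in WT and 87.1 and 79.1 CPM in KO cells. WT FoxP3−CD25− cells were at 90.0 and 90.5 CPM, KO FoxP3−CD25− cells at 141 and 135 CPM, and KO FoxP3+CD25− cells highest, at 192 and 212 CPM. No groups overlapped in this order, and the genotypes within the FoxP3+CD25+ gate lay closest, with 76.8 CPM as the higher WT and 79.1 CPM as the lower KO value. The share of all genes with such an order of the groups was not counted, so nothing is read from it. The log2 difference between FoxP3+CD25+ and FoxP3−CD25− cells was −0.33 (SE 0.11) in WT and −0.73 (SE 0.11) in KO mice.

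**Figure D2:**
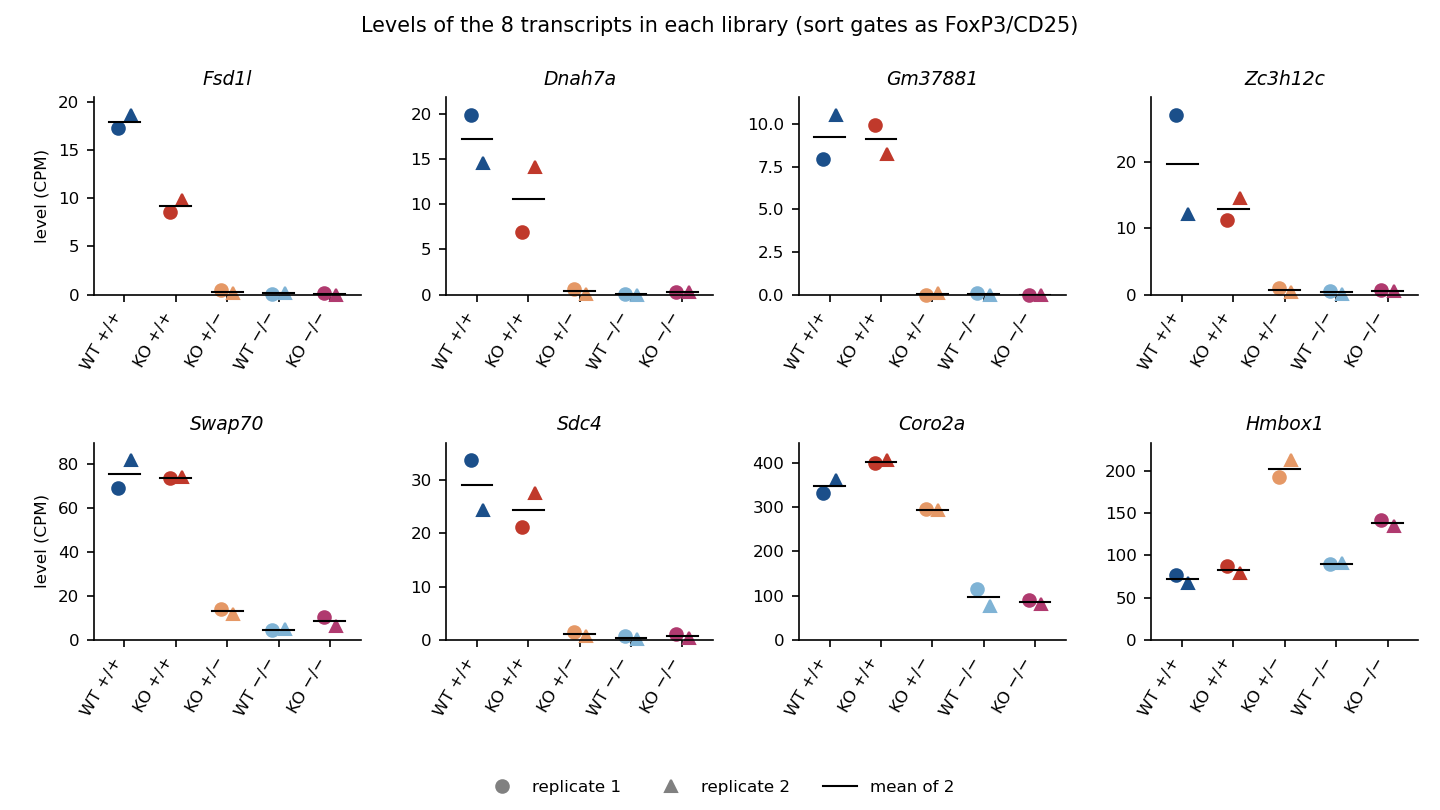
Level (CPM scaled by TMM factors, linear axes from 0) of each transcript in the 10 libraries, by genotype and sort gate written as FoxP3/CD25, with a circle for replicate 1, a triangle for replicate 2 and a line at the mean. *Fsd1l*, *Dnah7a*, *Gm37881*, *Zc3h12c* and *Sdc4* lie near 0 outside the CD25+ gate, *Coro2a* stays at 294 and 293 CPM in KO FoxP3+CD25− cells, and *Hmbox1* is highest there.

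Between genes, levels were compared per kb of exon in WT FoxP3+CD25+ cells. *Coro2a* stood at 53.7 ± 3.20 CPM per kb (SD, n = 2), above 93.9% of tested genes, and *Gm37881* at 21.9 ± 4.33, above 81.1%. *Sdc4* (11.4 ± 2.55), *Swap70* (9.29 ± 1.11) and *Hmbox1* (7.42 ± 0.716) were in the middle of all genes, and the libraries of *Sdc4* and *Swap70* overlapped. *Zc3h12c* (2.86 ± 1.53), *Fsd1l* (1.85 ± 0.101) and *Dnah7a* (1.35 ± 0.294) were low, with *Dnah7a* above 17.6% of tested genes, and *Zc3h12c* and *Fsd1l* overlapped.

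The question put to the KO FoxP3+CD25− population, cells that express *Foxp3* without CD25 in SATB1-deficient mice, was how much of each Treg pattern they carry. Their place was taken on the log2 CPM scale, with the mean of KO FoxP3−CD25− cells as 0 and of KO FoxP3+CD25+ cells as 1. *Coro2a* was at 0.798 and 0.796 in the 2 libraries, beside *Foxp3* itself at 0.798 and 0.758. The reporter of *Foxp3* was used in the sort, so a high place of *Foxp3* follows from the gate. *Swap70* was at 0.251 and 0.168, *Fsd1l* at 0.245 and 0.0327, *Sdc4* at 0.180 and 0.0198 and *Gm37881* at 0 and 0.101. *Zc3h12c* was at 0.136 and −0.0739 and *Dnah7a* at 0.170 and −0.144. The last 5 genes rest on 0 to 9 counts per library here, and for each of them the 2 libraries differed by more than the mean place. *Hmbox1* was at −0.650 and −0.842, outside the range of the other KO populations. With the WT groups as ends, *Coro2a* was at 0.873, *Swap70* at 0.361 and *Hmbox1*, whose WT ends lie close together, at −3.51.

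Among 18 familiar Treg markers, measured in the same way, *Foxp3* was the 1 gene with a mean place of 0.5 or above. Of the other 17, 7 lay between 0 and 0.5, *Il2ra* at 0.169 among them, and 10 lay below 0. GFP and CD25 set the gate, so the high place of *Foxp3* and the low place of *Il2ra* follow from the sort. Among those below 0, *Icos* (−5.37), *Nrp1*, *Entpd1* and *Tigit* were not called between the KO ends (edgeR FDR 0.0861 to 0.744). Their places are therefore less certain. *Ikzf4*, which encodes the Ikaros-family factor Eos, was at 0.349 and *Lrrc32*, which encodes the TGF-β docking receptor GARP, at 0.275. The median over the 18 markers was −0.132. The log2 difference between KO FoxP3+CD25− and KO FoxP3−CD25− cells was 1.77 (SE 0.16) for *Coro2a*, 0.55 (SE 0.11) for *Hmbox1* and 0.65 (SE 0.23) for *Swap70*. These are 3 of 8 transcripts with both KO FoxP3+CD25− libraries above all FoxP3−CD25− libraries, an order found for 8.56% of tested genes. Against the 4 FoxP3+CD25+ libraries, both KO FoxP3+CD25− libraries were below for 7 of 8 transcripts, as for 17.1% of tested genes, and above for *Hmbox1*, as for 16.0%. The transcripts were picked by FoxP3+ against FoxP3− levels in these same libraries, so these counts too follow the choice and nothing is read from them.

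**Figure D3:**
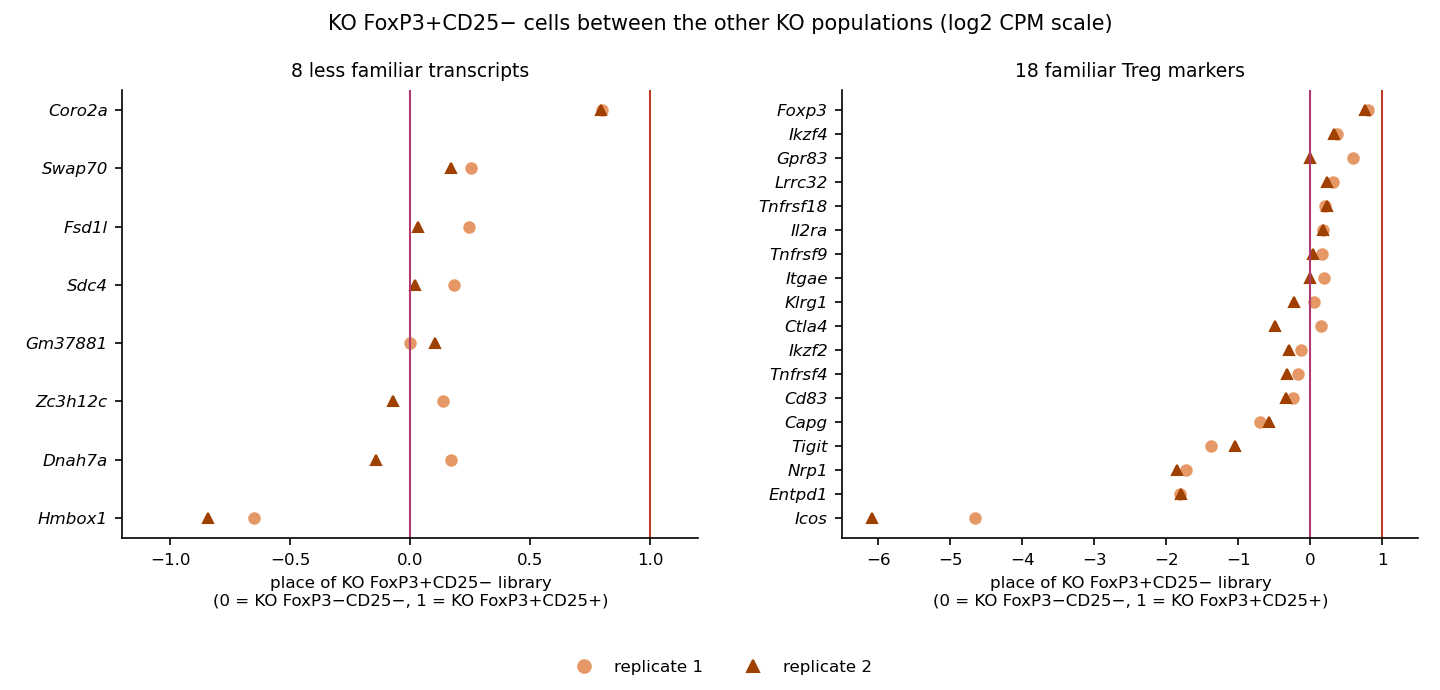
Place of each KO FoxP3+CD25− library on the log2 CPM scale, where 0 (purple line) is the mean of KO FoxP3−CD25− cells and 1 (red line) that of KO FoxP3+CD25+ cells, for the 8 transcripts (left) and 18 familiar Treg markers (right, wider axis), with circles for replicate 1 and triangles for replicate 2. *Coro2a* lies near 0.8, as does *Foxp3*, whose reporter was used in the sort, and most others lie near or below 0.

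The pattern over the 10 libraries set *Coro2a* and *Hmbox1* apart from the other 6. The values that follow are Pearson r of log2 CPM over 10 libraries, which share mice and gates, and are descriptions only. Between the 6 other transcripts r was 0.952 to 0.992 in 15 pairs, between them and *Coro2a* 0.769 to 0.859, and in the 7 pairs with *Hmbox1* −0.719 to −0.189. *Coro2a* followed *Foxp3* (0.979) more closely than *Il2ra* (0.857), while *Swap70* followed *Il2ra* (0.994) more closely than *Foxp3* (0.902). The non-member genes most like each transcript were *Ddx43*, *Kcnj15* and *Prkch* for *Fsd1l* (0.987 to 0.990) and *Tmem158*, *Phtf2* and *Itgae* for *Dnah7a* (0.985 to 0.993). For *Gm37881* they were *Kcnj15*, *Tnfrsf9* and *Ralgds* (0.989 to 0.995), and for *Zc3h12c* *Itgae*, *Ccr8* and *Gm29114* (0.987 to 0.998). *Swap70* was most like *Il2ra*, *Lrrc32* and *Gm17041* (0.989 to 0.994) and *Sdc4* most like *Itgae*, *Vav2* and *Cish* (0.991 to 0.996). *Coro2a* was most like its antisense neighbour *Gm16731* (0.988), *Gng12* (0.982) and *Ccdc22* (0.980), and *Hmbox1* most like *Cdc42ep3* (0.963), *Znrf2* (0.954) and *2310022B05Rik* (0.951).

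SATB1 deficiency within a gate was not used to pick the transcripts, so here they were tested, with the quasi-likelihood test of edgeR over all 13796 genes and Benjamini-Hochberg adjustment (FDR). In FoxP3+CD25+ cells 0 of 8 transcripts passed the test, where 0.00725% of all genes were called, 1 gene. At an unadjusted p under 0.05 there were 2 of the 8 and 592 genes in all. DESeq2 called 0 of the 8 as well. The lowest p was that of *Fsd1l*, with a log2 difference KO minus WT of −0.96 (SE 0.25) and an edgeR FDR near 1, lower in both KO libraries than in both WT libraries, an order that 14.2% of all genes showed. *Dnah7a* was at −0.69 (SE 0.31), also without overlap, though 1 KO library, at 14.2 CPM, lay just below the lower WT library, at 14.5 CPM. Leaving out libraries moved this difference between −1.32 and −0.27. *Zc3h12c* was at −0.59 (SE 0.35), which became 0.096 without WT replicate 1. *Sdc4* was at −0.25 (SE 0.27), *Gm37881* at −0.03 (SE 0.28) and *Swap70* at −0.03 (SE 0.17). *Coro2a* was at 0.21 (SE 0.15) and *Hmbox1* at 0.21 (SE 0.11), both with the KO above the WT libraries, as 13.5% of all genes had. The median of the 8 was −0.14 against −0.0031 over all genes tested, and in FoxP3−CD25− cells it was 0.64 against −0.0027. These medians are over 8 picked genes, most of them with few counts in the second gate, and nothing is read from them. Without WT replicate 1 in both gates *Fsd1l* was at −1.01 (SE 0.28).

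In FoxP3−CD25− cells 0 of 8 transcripts passed the test either, where 0.145% of all genes did, 20 genes, and at an unadjusted p under 0.05 there were 2 of the 8 and 1106 genes in all. *Hmbox1* was nearest, with 90.0 and 90.5 CPM in WT and 141 and 135 CPM in KO cells, a log2 difference of 0.61 (SE 0.11, edgeR FDR = 0.0806). It passed under 5 of 14 alternatives, DESeq2 among them, with FDR from 0.0041 to 0.418 over the 14 and a difference of 0.59 to 0.65. *Swap70* was at 0.81 (SE 0.25, edgeR FDR = 0.358), higher in both KO libraries, as were *Hmbox1*, *Dnah7a* with 4 counts against 1 over the groups, and 19.0% of all genes. *Coro2a* was at −0.16 (SE 0.16), which turned to 0.15 without WT FoxP3−CD25− replicate 1. The other 5 had 0 to 10 counts per group in this gate, and their ratios had wide counting intervals, for example 8 counts in each genotype for *Zc3h12c*, a scaled ratio of 1.60 (95% interval 0.522 to 4.88). A difference of less than about the width of such an interval was not detectable at this depth. Without WT replicate 1 in both gates *Hmbox1* was at 0.61 (SE 0.12, edgeR FDR = 0.124).

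The difference between the KO effects of the gates was tested as an interaction. None of the 13796 genes passed (0.00% called in edgeR, 685 at an unadjusted p under 0.05, 23 genes in DESeq2), and neither did any of the 8 in either tool, of which 2 had an unadjusted p under 0.05. *Swap70* was at −0.83 (SE 0.30, edgeR FDR = 0.868) and *Hmbox1* at −0.40 (SE 0.16, edgeR FDR = 0.929), both with the larger KO effect in FoxP3−CD25− cells. With a block for the mouse 148 genes passed and still 0 of the 8, with an edgeR FDR of 0.226 for *Swap70* and 0.293 for *Hmbox1*. *Fsd1l*, *Dnah7a*, *Gm37881*, *Zc3h12c* and *Sdc4* had 0 to 10 counts per group in FoxP3−CD25− cells. Their SEs here were 0.94 to 6.10, so the test could not decide for them. For *Swap70*, *Coro2a* and *Hmbox1* the KO effects were not shown to differ between the gates.

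**Figure D4:**
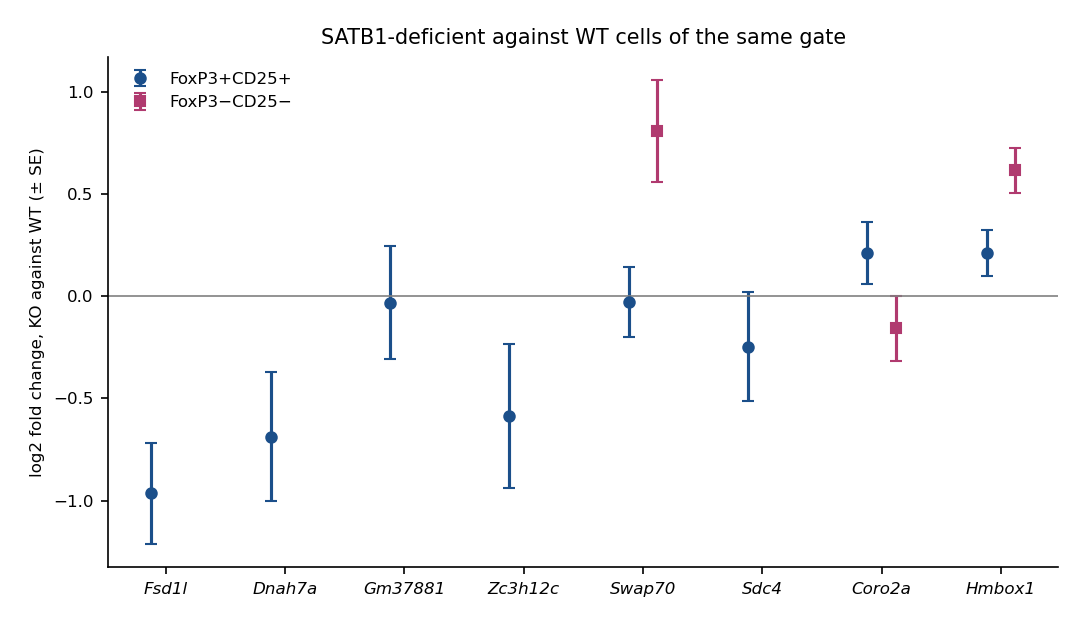
Log2 fold change of KO against WT cells (points, with bars for the SE of the edgeR fit over 10 libraries) in FoxP3+CD25+ (blue circles) and FoxP3−CD25− cells (purple squares); 5 transcripts with 0 to 10 counts per group in FoxP3−CD25− cells are left out there. *Fsd1l* has the lowest value, −0.96, and *Hmbox1* and *Swap70* lie above 0 in FoxP3−CD25− cells, while none passed the test.

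Families of the transcripts were tested between the gates. They were listed by kinship or shared function, with earlier results of these data known. Of 46 tested relatives and partners, 7 were called in WT FoxP3+CD25+ against FoxP3−CD25− cells, where 10.9% of all genes were. With a block for the mouse 15 of the 46 passed, and 2634 of all 13796 genes did. Among 11 activators of Rac GTPases, related in function to *Swap70*, *Vav2* rose by 2.88 on the log2 scale (SE 0.22, edgeR FDR = 2.28e-05), from 10.5 ± 2.54 to 77.7 ± 1.86 CPM (SD, n = 2). *Tiam1* rose by 2.60 (SE 0.21) and *Prex1* fell by 0.62 (SE 0.13), while *Def6*, the closest relative of *Swap70*, was at −0.11 (SE 0.10). The call of *Prex1* was lost without WT FoxP3−CD25− replicate 1 or WT FoxP3+CD25+ replicate 2, and with the compared libraries alone.

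In KO mice *Vav2* rose by 2.35 (SE 0.21) and *Tiam1* by 1.13 (SE 0.20) between the same gates, where 6.34% of all genes were called, and *Prex1* fell by 0.94 (SE 0.13). *Tiam1* lost its call without KO FoxP3−CD25− replicate 1. In KO FoxP3+CD25− cells *Tiam1* was lower than in KO FoxP3−CD25− cells, by −2.03 on the log2 scale (SE 0.22, edgeR FDR = 0.0013), at 28.0 ± 4.18 against 115 ± 26.6 CPM (SD, n = 2), where 1.67% of all genes were called. *Vav2* was at 0.18 (SE 0.23) there. *Tiam1* and *Swap70* thus lay on opposite sides of the KO FoxP3−CD25− level in these cells.

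Of 5 regnases and roquins, *Zc3h12d* rose in WT FoxP3+CD25+ cells by 0.85 (SE 0.14, edgeR FDR = 0.0028) and in KO cells by 0.64 (SE 0.15). In KO cells *Zc3h12a*, the regnase best known for restraining T-cell activation, rose by 0.77 (SE 0.19, edgeR FDR = 0.0409), and both KO calls were lost when any 1 of the 4 compared libraries was left out. *Zc3h12a* was at 0.64 (SE 0.19, edgeR FDR = 0.0519) in WT cells, close to the KO value. Of 16 dynein heavy chains 7 were tested, and in WT cells *Dync2h1* rose by 0.82 (SE 0.21) while *Dnah8* fell by 0.59 (SE 0.10) and *Dnah14* by 0.41 (SE 0.11). *Dync2h1* lost its call without WT FoxP3−CD25− replicate 1 or WT FoxP3+CD25+ replicate 2, and with the compared libraries alone. *Dnah14* lost its call without any 1 of the 4 WT libraries, without a filter, in DESeq2 and with the compared libraries alone. *Dnah8* was called in KO cells too, at −0.55 (SE 0.10, edgeR FDR = 0.0083). That call was lost without KO FoxP3+CD25+ replicate 1 or 2 or KO FoxP3−CD25− replicate 2. *Coro1c* was the 1 of 5 coronins tested that was called, in KO cells, at −0.50 (SE 0.12), and this call was lost without KO FoxP3+CD25+ replicate 1 or 2 or KO FoxP3−CD25− replicate 1, without a filter and with the compared libraries alone. In WT cells *Coro1c* was at −0.41 (SE 0.12, edgeR FDR = 0.0508). The syndecans and glypicans (3 tested), the NCoR complex (6 tested), the shelterin and telomerase genes with the Hnf1 homeobox genes (8 tested) and the relatives of *Fsd1l* (1 tested) had 0 calls between the gates in edgeR and in DESeq2. At an unadjusted p under 0.05 there were 5 of these 18 genes in WT and 1 in KO mice. The share of all genes at that p between the gates was not counted, so nothing is read from this. With a block for the mouse *Gps2*, *Tert*, *Tinf2* and *Fsd2* passed in WT mice, among 2634 of all 13796 genes. Between KO and WT cells edgeR called 0 of the 46 in either gate. An unadjusted p under 0.05 was met by 3 of them in the FoxP3+CD25+ gate and by 6 in the other. Over all genes these numbers were 592 and 1106. DESeq2 called 0 and 1, the latter *Tiam1*, higher in KO FoxP3−CD25− cells, and 5 and 103 of all genes.

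The neighbours of the transcripts on the chromosome were looked at because counts can spill between genes. *Coro2a* shares 329 exon bases with *Gm16731* on the other strand, and the counting is not stated to have used strand, so reads in these bases cannot be told apart. *Gm16731* was at 45.5 CPM in WT FoxP3+CD25+, 12.1 CPM in WT FoxP3−CD25− and 31.1 CPM in KO FoxP3+CD25− cells, a log2 difference between the WT gates of 1.90 (SE 0.18). The genes on either side moved the same way. *Trim14*, 795 bases away, rose by 0.63 (SE 0.12, edgeR FDR = 0.0055) between the WT gates, and *Tbc1d2*, 2187 bases away, by 1.73 (SE 0.42, edgeR FDR = 0.0211). *Trim14* lost its call without WT FoxP3−CD25− replicate 2, and *Tbc1d2* without WT FoxP3−CD25− replicate 1 or 2 or WT FoxP3+CD25+ replicate 2.

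Around *Gm37881*, *Il2ra* was at a log2 difference of 8.06 between the WT gates, CD25 having been used in the sort. *Ints9* starts 173 bases from *Hmbox1* and was at 42.9 to 44.2 CPM in all 5 groups. *Slpi*, 35151 bases from *Sdc4*, was lower in WT FoxP3+CD25+ cells, with 1 and 0 counts against 32 and 32. *Slc44a1* beside *Fsd1l* was at 0.53 (SE 0.18, edgeR FDR = 0.0892). *Wee1*, 78424 bases from *Swap70*, rose by 1.66 (SE 0.35) and *Kif13b*, 1982 bases from *Hmbox1*, by 0.85 (SE 0.23), and either call was lost without WT FoxP3+CD25+ replicate 1 or WT FoxP3−CD25− replicate 1 or 2. That of *Kif13b* was lost with the compared libraries alone too.

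Promoter windows from RefSeq (GRCm38.p6, 250 bases before to 50 after the start) were held for 6 of the 8 transcripts, 9 windows in all, and were searched on both strands for 8 short motifs. The forkhead motif GTAAACA, the letters FoxP3 and its relatives prefer, was found in the window of *Swap70* and in 2.54% of the 11709 windows of tested genes. The 250 bases before its start are shown for this reason, at chr7:110221453-110221702 on the plus strand, with the motif in capitals as read on this strand.

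Swap70: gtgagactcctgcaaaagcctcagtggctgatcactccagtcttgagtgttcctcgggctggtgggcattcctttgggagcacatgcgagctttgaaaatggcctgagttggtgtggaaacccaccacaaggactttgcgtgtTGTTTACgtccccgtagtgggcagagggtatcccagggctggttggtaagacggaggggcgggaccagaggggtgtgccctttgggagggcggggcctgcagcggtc

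The NFAT motif TGGAAA was in windows of *Sdc4*, *Coro2a* and *Swap70* and in 16.8% of all windows, the ETS motif CCGGAAG in that of *Dnah7a* and in 18.1%, and an NF-κB motif in those of *Sdc4*, *Coro2a*, *Swap70* and *Zc3h12c* and in 66.6%. The Runx motif TGTGGTT (3.90% of all windows), the AP-1 motif TGANTCA (4.91%), the STAT motif TTCNNNGAA (6.93%) and the TATA motif TATAAA (6.72%) were in none of the 9. The NF-κB motif was searched as GGG, any 5 bases and CC, so that neighbouring matches can overlap each other, and a match is a description of the sequence and not a bound site.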

How the data were processed

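The authors deposited counts for 48321 gene symbols in each of 10 libraries, made by alignment of 50-base reads to the mouse genome (mm10) with HISAT2 (2.1.0) and counting with HTSeq (0.11.1 in the processing notes), without normalization. The NEBNext Ultra library kit is named in the labels, and the strand setting and annotation of the counting are not given in the sources used here. The 5 tally rows of HTSeq were left out. The 8 transcripts, their families and the alternatives were chosen with earlier results of these data known. Genes named in the text are the 8 transcripts, listed families and familiar markers, the nearest tested genes within 100 kb and overlapping genes, and the 3 genes most like each transcript.

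Genes were filtered with filterByExpr (minimum count 10, 13796 left) and compared with the quasi-likelihood F-test of edgeR (4.0.16, bias-adjusted fit, R 4.3.3, limma 3.58.1), two-sided, in 1 model of 10 libraries with a mean per group and TMM normalization, at a Benjamini-Hochberg FDR of 0.05. The methods of the study name edgeR without a test or design. CPM used TMM-scaled library sizes, log2 CPM a prior count of 2, and ratios of low counts exact conditional 95% intervals, which cover counting error only. SE is that of the log2 fold change. The steps were tested on simulated data. With 2 libraries per group, p-values rest on a spread pooled over the 5 groups and moderated over all genes tested. The main model did not pair libraries taken to be from 1 mouse. Positions are from GENCODE M21 (mm10), promoter windows from RefSeq (GRCm38.p6).

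Same-numbered libraries of a genotype deviated together from their group means (r 0.303 in WT, 0.421 to 0.445 in KO), while libraries of different genotypes did not (−0.011 to 0.114), so a block for the mouse was used as an alternative for comparisons between gates. Other alternatives were no filter or CPM above 1, RLE factors or library size alone, DESeq2 (1.42.0), the likelihood ratio test, the legacy quasi-likelihood method, a block for the replicate number, fits of just the libraries compared and leaving out each library. Leaving out WT replicate 1 in both gates was added after seeing the data.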

Additional observations from a re-analysis of the deposited data

How the results depend on the processing

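Counts of genes called depended more on the test than on scaling. KO against WT in FoxP3+CD25+ cells gave 1 gene, and 5 without a filter, 5 in DESeq2, 11 in the likelihood ratio test, 0 with the compared libraries alone, 3 without WT replicate 1 in both gates and 1 to 7 when 1 library was left out. In FoxP3−CD25− cells the 20 genes became 91 without a filter, 31 with library size alone, 103 in DESeq2, 143 in the likelihood ratio test, 66 with the compared libraries alone and 0 to 4 with 1 library left out. The difference of the KO effects gave 0 genes, and 7 without a filter, 23 in DESeq2, 32 in the likelihood ratio test and 0 to 121 with 1 library left out, 121 without WT FoxP3+CD25+ replicate 2. The block for the replicate number, a pairing that different genotypes do not share, gave 4, 108 and 10 genes in these comparisons. Between WT gates the 1504 genes became 715 without WT replicate 1 in both gates and 828 to 2185 with 1 library left out, and between KO FoxP3+CD25+ and FoxP3−CD25− cells the 874 became 396 to 441. KO FoxP3+CD25− against FoxP3−CD25− cells gave 230 genes, and 411 without a filter, 353 in DESeq2, 514 in the likelihood ratio test, 403 with the replicate block and 30 to 169 with 1 library left out, and against KO FoxP3+CD25+ cells 967, or 410 to 562. The block for the mouse gave 2634, 1649, 786 and 2090 genes in the 4 comparisons of gates and 148 for the difference of the KO effects. The cause of these shifts was not tested.

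For the 8 transcripts, *Hmbox1* in FoxP3−CD25− cells was the 1 result whose call changed. It passed without a filter, in DESeq2, in the likelihood ratio test, with the compared libraries alone and with the replicate block. Of 902 alternative values, 854 moved by less than the spread or kept their side of the threshold, 5 were these calls of *Hmbox1*, and 43 untested values, log2 differences between gates or places of the KO FoxP3+CD25− population, moved by more than the spread. *Fsd1l*, *Dnah7a*, *Gm37881*, *Zc3h12c* and *Sdc4* are limited by depth outside the CD25+ gate, at 0 to 9 counts per library.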
